A study of Homo sapiens with 2 samples.

Results

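The 10 genes described here encode claudins and other proteins of the epithelial tight junction: CLDN1, CLDN2, CLDN3, CLDN4, CLDN7, CLDN12, CLDN15, OCLN, TJP1 and F11R. They were taken by symbol from the 36601 genes of the deposited count matrices, and all 10 were found there. The matrices come from organoids of the established iPS (induced pluripotent stem) cell line 1383D6, in a study that set out to model ulcerative colitis. The 3CK library comes from organoids exposed for 8 days to IL-1β, IFN-γ and TNF-α together, at doses that the labels do not state, and the CNT library from organoids left without them. Both cultures shared the same history: Activin A with Y-27632, then FGF2, then growth in Matrigel with EGF, forskolin, the MEK inhibitor PD98059, the DNA methylation inhibitor 5-Aza-2'-Deoxycytidine and a further agent. Cells were released with trypsin and captured with the 10x Genomics 3' chemistry, with about 8300 cells loaded per library. All cells derive from 1 line, and each group is 1 library. No test was possible and no difference below has a replicate check. The 95% intervals printed cover counting error and not the spread between cultures.

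Tight junctions seal the space between neighbouring epithelial cells near their apical side. Claudins are 4-pass membrane proteins that form the strands: most of them, CLDN1, CLDN3, CLDN4 and CLDN7 among them, are counted as sealing claudins, whereas CLDN2 and CLDN15 form channels that let small cations and water pass. Occludin (OCLN) lies in the same strands, JAM-A (F11R) is an immunoglobulin-like adhesion protein beside them, and ZO-1 (TJP1) is the cytoplasmic scaffold that ties the strands to actin. In the inflamed colon, work on patients and cell layers has linked cytokines to more CLDN2 and a leakier epithelium.

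Levels were measured in epithelial cells, defined as kept barcodes with at least 10000 unique molecular identifiers (UMIs), at least 2 EPCAM UMIs per 10000 and under 5 UMIs per 10000 of COL1A1, COL1A2 and COL3A1 together. This gave 942 of 3257 CNT barcodes and 717 of 1641 3CK barcodes, with medians of 68462.5 and 93963 UMIs per cell. No barcode was shared by the libraries. Their label as colon epithelium was only partly met by markers: all 6 epithelial markers were above 10 CPM (UMIs per 1000000 UMIs of the cells), but so were all 7 hepatic markers, and TTR alone took 6.62% of CNT and 1.95% of 3CK UMIs. EPCAM had to pass because of the gate. All 6 epithelial markers were also above 10 CPM in CNT collagen cells, defined below, and 5 in 3CK ones, so this mark does not separate the cells. Of 7 colonocyte markers 3 in CNT and 2 in 3CK were above 10 CPM: CA4 (139 and 59.5 CPM), CA2 (117 and 38.4 CPM) and, in CNT, GUCA2A (16.9 and 7.46 CPM). The colonocyte genes CA1, AQP8 and CEACAM7 were under 1 CPM in CNT and at 1.45, 0.118 and 6.73 CPM in 3CK. Of 6 goblet markers 2 were above 10 CPM, ZG16 (1385 and 761 CPM) and TFF3 (122 and 38.8 CPM), whereas the mucin MUC2 was at 1.16 and 0.661 CPM. The 5 neural markers were each under 1 CPM in both libraries. The cells were therefore also read in 3 TTR levels: low (under 50 UMIs per 10000), middle (50 to 500) and high (over 500). CNT had 81, 364 and 497 cells in these levels and 3CK had 221, 427 and 69, so low cells made up 8.60% of CNT and 30.8% of 3CK epithelial cells and high cells 52.8% and 9.62%. Collagen cells served as the comparison: 336 CNT and 109 3CK barcodes of the same depth with EPCAM under 2 and the 3 collagens at 5 or more UMIs per 10000. Levels are 3' UMI counts, 1 per captured molecule, so they were not divided by transcript length.

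CLDN7 was the most abundant member and CLDN2 the least, in both libraries. In CNT epithelial cells the order was CLDN7 (396 CPM), CLDN4 (156 CPM), OCLN (114 CPM), F11R (110 CPM), TJP1 (84.9 CPM), CLDN3 (57.5 CPM), CLDN1 (51.7 CPM), CLDN15 (10.9 CPM), CLDN12 (10.3 CPM) and CLDN2 (2.96 CPM). The counting intervals overlapped between neighbours for OCLN (112 to 117 CPM) and F11R (108 to 113 CPM) and for CLDN15 (10.2 to 11.8 CPM) and CLDN12 (9.59 to 11.1 CPM). In 3CK the order was CLDN7 (598 CPM), CLDN4 (210 CPM), F11R (150 CPM), OCLN (98.4 CPM), TJP1 (95.9 CPM), CLDN1 (68.9 CPM), CLDN3 (28.5 CPM), CLDN12 (14.7 CPM), CLDN15 (8.93 CPM) and CLDN2 (0.984 CPM). There OCLN (96.1 to 101 CPM) and TJP1 (93.6 to 98.3 CPM) overlapped. The exchanges of place were thus F11R above OCLN, CLDN1 above CLDN3 and CLDN12 above CLDN15. Among all claudins this set leaves out one that was more abundant than CLDN4: CLDN6, an embryonic claudin, stood at 370 CPM in CNT against 393 CPM in 3CK.

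Between the libraries, 6 members were higher and 4 lower in 3CK. By at least 2-fold, 0 were higher and 2, CLDN2 and CLDN3, were lower. Of 16729 genes that reached 1 CPM in CNT or 3CK, 8.91% were higher and 11.8% lower by that much, and of 9784 that reached 10 CPM, which leave out CLDN2, 8.07% were higher and 7.76% lower. The median log2 ratio of the 10 members was 0.30, against 0.01 over all genes with at least 1 CPM. Counts of 0 and 2 among 10 genes are close to these background shares and are no property of the set.

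**Figure D1:**
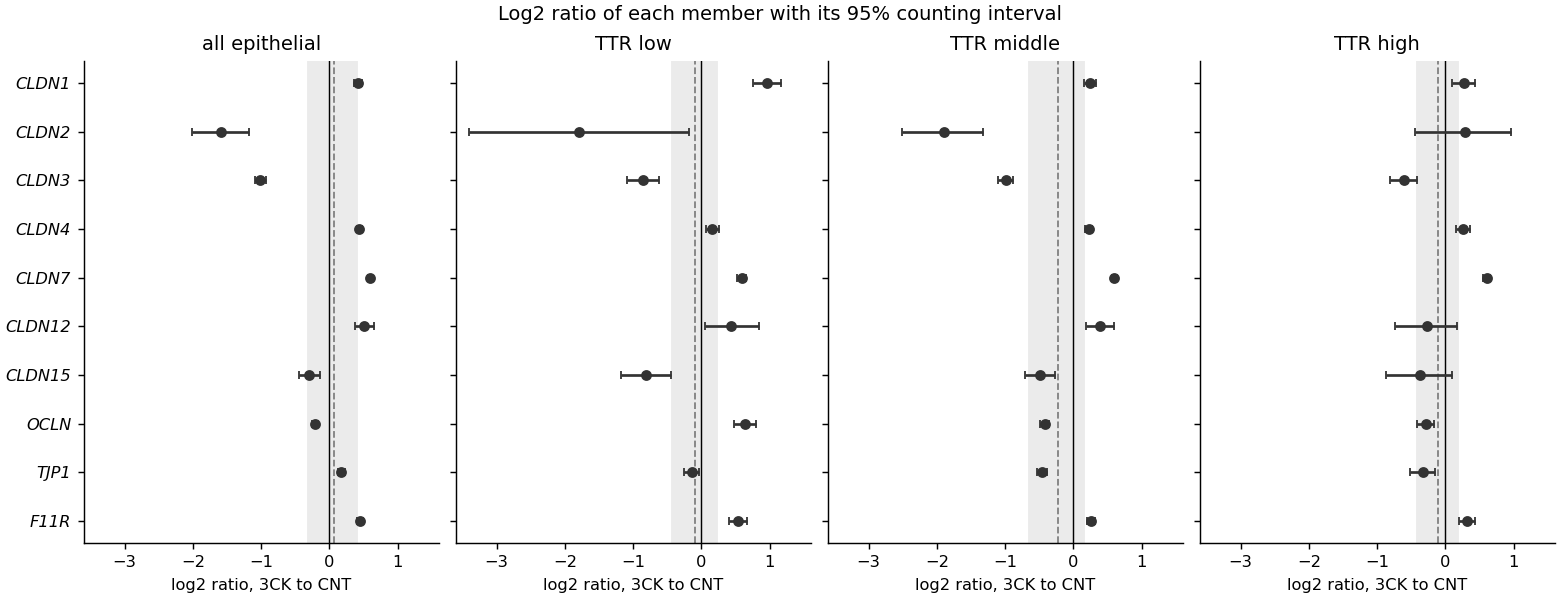
Log2 ratio of 3CK to CNT for each member (points) with its 95% counting interval (bars), in all epithelial cells and in each TTR level; the dashed line is the median and the grey band the middle 50% of all genes with at least 10 CPM in those cells. CLDN3 (-1.01 in all epithelial cells) lies to the left of the band and CLDN7 (0.59) to its right in each panel, whereas CLDN2 lies to the left in all but TTR high cells (0.29).

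The 250 bases before the start are shown for the 2 members that were lower by at least 2-fold, for the most abundant member and for CLDN1, to look for motifs of factors that these cytokines activate. Sequences are from the RefSeq promoter table (GRCh38.p14), which held 15 starts of 9 members and none of F11R. They are written 5′ to 3′ along the gene, and capitals mark a match to a GAS element (TTCNNNGAA), an IRF element (GAAA, any 2 bases, GAAA), the NF-κB consensus or a Snail E-box (CAGGTG), each searched on both strands.
CLDN2 promoter, chrX:106899914-106900163, plus strand: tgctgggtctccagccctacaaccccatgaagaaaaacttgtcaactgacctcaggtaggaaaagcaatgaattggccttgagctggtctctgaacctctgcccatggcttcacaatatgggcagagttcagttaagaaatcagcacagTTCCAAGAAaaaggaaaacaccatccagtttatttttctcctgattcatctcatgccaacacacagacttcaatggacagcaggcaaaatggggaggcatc
CLDN3 promoter, chr7:73770271-73770520, minus strand: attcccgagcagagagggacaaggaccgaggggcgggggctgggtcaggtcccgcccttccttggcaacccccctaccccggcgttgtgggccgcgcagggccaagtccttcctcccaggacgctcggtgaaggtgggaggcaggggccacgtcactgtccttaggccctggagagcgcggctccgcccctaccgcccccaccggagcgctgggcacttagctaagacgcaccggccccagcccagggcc
CLDN7 promoter, chr17:7263214-7263463, minus strand: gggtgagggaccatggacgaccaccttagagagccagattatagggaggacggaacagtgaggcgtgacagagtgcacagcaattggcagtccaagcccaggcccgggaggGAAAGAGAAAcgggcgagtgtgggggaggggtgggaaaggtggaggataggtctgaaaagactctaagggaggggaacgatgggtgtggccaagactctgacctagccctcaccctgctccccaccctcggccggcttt
CLDN1 promoter, chr3:190322447-190322696, minus strand: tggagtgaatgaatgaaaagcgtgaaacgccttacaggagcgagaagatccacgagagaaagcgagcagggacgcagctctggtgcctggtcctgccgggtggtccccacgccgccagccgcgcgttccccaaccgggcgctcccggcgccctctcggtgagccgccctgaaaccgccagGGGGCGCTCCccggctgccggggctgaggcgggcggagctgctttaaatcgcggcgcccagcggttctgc
At the starts shown, CLDN2 holds 1 GAS match, whose first base lies at -101 from the start, and CLDN7 1 IRF match at -139. The other CLDN2 start, not shown, holds no match to any of these motifs. CLDN1 holds 1 NF-κB match at -70, the only one among the members, and CLDN3 holds none of the 4 motifs and 4 GC boxes (GGGCGG). The starts shown for CLDN1, CLDN2 and CLDN7 are ones with a GAS, IRF or NF-κB match, so they are no neutral sample of the 15. CLDN12 also holds a GAS match, at -95, and the other CLDN7 start 4 Snail E-boxes. Snail E-boxes also lie at both OCLN starts (-33 and -133) and at 1 TJP1 start (-88). Of 35114 promoter windows of the same length, 6.57% hold a GAS match, 3.02% an IRF match, 9.96% an NF-κB match, 17.5% a Snail E-box and 42.6% a GC box. A match is a description of these letters and no evidence of binding.

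CLDN7 held the largest part of the claudin transcripts: 35.5% of the UMIs of all 24 claudins listed in CNT and 43.3% in 3CK, followed by CLDN6 with 33.2% and 28.5%. The gene (ENSG00000181885) lies on chromosome 17 at 7259903 to 7263983 of GRCh38 (GENCODE annotation), and its protein is found along the basolateral membrane as well as in the junction. It stood at 396 CPM in CNT (391 to 401) against 598 CPM in 3CK (592 to 603), a log2 ratio of 0.59 (0.57 to 0.62). The ratio was nearly equal in the 3 TTR levels: 355 against 534 CPM in low cells (log2 0.59), 412 against 625 CPM in middle cells (0.60) and 391 against 596 CPM in high cells (0.61). The value in high cells depended on where the level began: with TTR boundaries of 100 and 1000, which leave 195 CNT and 13 3CK high cells, it was 0.07. The median cell held 327 CPM in CNT against 526 CPM in 3CK, and the 10 cells with most CLDN7 held 5.65% and 5.16% of its UMIs. After each cell was thinned to 10000 UMIs, 88.7% of CNT (86.6 to 90.7) against 95.8% of 3CK epithelial cells (94.1 to 97.2) had a CLDN7 UMI. An unnamed gene on the same strand overlaps CLDN7, so its counts carry that uncertainty. In cycling cells, gated by MKI67, TOP2A and CDK1 (28 CNT and 24 3CK cells), the log2 ratio was 0.61 (0.48 to 0.74).

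CLDN4, which is often raised where epithelia tighten, was the other abundant sealing member. It stood at 156 CPM in CNT (153 to 159) against 210 CPM in 3CK (207 to 214), a log2 ratio of 0.44 (0.40 to 0.47). Within TTR levels the ratio was smaller, 0.16 (0.06 to 0.25) in low, 0.22 (0.17 to 0.28) in middle and 0.26 (0.15 to 0.36) in high cells. In CNT the level was 208 CPM in low, 178 CPM in middle and 134 CPM in high cells, and 3CK holds a smaller share of high cells. In high cells the sign depended on the weighting: with each cell counted equally the log2 ratio was -0.01, and with TTR boundaries of 100 and 1000 it was -0.33. Thinned to equal depth, 57.6% of CNT and 66.5% of 3CK cells had a CLDN4 UMI. Across cells, CLDN4 went with CLDN7 more than with any other of 2667 genes compared: the correlation of log values was 0.50 over 942 CNT cells and 0.45 over 717 3CK cells. JUND, YWHAZ, TMBIM1 and PRSS8, a membrane serine protease, followed, with the lower of the 2 correlations at 0.37, 0.37, 0.36 and 0.36. Cells of a library share its depth and ambient RNA, so these values are descriptions.

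CLDN3 was lower in 3CK in each TTR level. It lies on chromosome 7 (73768997 to 73770270, minus strand), 29272 bases from CLDN4 (73799542 to 73832690, plus strand) with 0 annotated genes between them. It stood at 57.5 CPM in CNT (55.7 to 59.4) against 28.5 CPM in 3CK (27.2 to 29.8), a log2 ratio of -1.01 (-1.09 to -0.93) that is only just past 2-fold. The ratio was -0.86 in low cells (42.0 against 23.2 CPM), -0.99 in middle cells (58.3 against 29.3 CPM) and -0.61 in high cells (59.2 against 38.9 CPM). It fell short of 2-fold with TMM factors (-0.99) and with EPCAM at 4 or more (-0.88), and at CNT's mix of TTR levels it was -0.76. In middle cells it was -0.61 with TMM factors, and in high cells -0.29 with TTR boundaries of 100 and 1000. In the median cell it went from 33.4 to 8.72 CPM, and after thinning 32.4% of CNT (29.4 to 35.5) against 16.7% of 3CK cells (14.1 to 19.7) had a CLDN3 UMI. So CLDN3 and its neighbour CLDN4 differed between the libraries in opposite directions, although they went together across cells within each library (correlation 0.31 in CNT and 0.31 in 3CK). After CLDN4, the genes most like CLDN3 were CLDN7 (0.29), CHMP2A, YIPF2 and CD63 (0.22 each).

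CLDN1 (chromosome 3, 190305707 to 190322446, minus strand), a broadly expressed sealing claudin, stood at 51.7 CPM in CNT against 68.9 CPM in 3CK, a log2 ratio of 0.42 (0.35 to 0.48). The difference was largest in TTR low cells, 41.5 CPM (36.2 to 47.3) against 80.6 CPM (76.6 to 84.8), or 0.96 on the log2 scale (0.75 to 1.17). In middle cells it was 0.24 (0.15 to 0.34) and in high cells 0.27 (0.10 to 0.43). The low cells of CNT are few, and 10 of their 81 cells held 66.2% of their CLDN1 UMIs. Without the cell with most CLDN1 in each library the ratio there was 1.11, and with TMM factors 1.18, both past 2-fold. In cycling cells CLDN1 was at 29.1 and 61.2 CPM, a log2 ratio of 1.07 (0.67 to 1.49).

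CLDN2 (chromosome X, 106900164 to 106930861, plus strand), the cation and water channel of leaky epithelia, was rare in both libraries and lower in 3CK. Its 202 UMIs in CNT gave 2.96 CPM (2.57 to 3.40) and its 67 UMIs in 3CK 0.984 CPM (0.763 to 1.25), a log2 ratio of -1.59 (-2.01 to -1.18). A UMI was seen in 97 of 942 CNT cells (10.3%) and in 36 of 717 3CK cells (5.02%) although the 3CK cells were deeper, and the 10 cells with most CLDN2 held 38.6% and 59.7% of its UMIs. After thinning, a UMI remained in 1.91% of CNT cells (1.14 to 3.00) and in 1.12% of 3CK ones (0.483 to 2.19), against 0.893% of CNT collagen cells (median depth 52420 UMIs) and 0 of 109 3CK collagen cells (median depth 77791 UMIs), which allows a share of up to 2.75%. These intervals overlap, so at 10000 UMIs per cell CLDN2 in 3CK could not be told from that background, and the difference between the libraries rests on the summed counts. By summed counts over all epithelial cells, CLDN2 was above the collagen cells in both libraries. Collagen cells held 0.491 CPM (0.235 to 0.903) in CNT, from 10 UMIs, and 0.105 CPM (0.00266 to 0.585) in 3CK, from 1 UMI. The sign also depended on the TTR level. In middle cells CLDN2 went from 79 to 37 UMIs, 3.19 against 0.851 CPM (log2 -1.90, -2.51 to -1.32), and the log2 ratio was -1.10 with TTR boundaries of 100 and 1000. In low cells 8 UMIs in each library gave 1.49 CPM (0.645 to 2.94) and 0.429 CPM (0.185 to 0.846), a log2 ratio of -1.80 (-3.41 to -0.19). Both intervals overlap those of the collagen cells, so CLDN2 in low cells could not be told from that background. In high cells it stood at 3.02 CPM in CNT against 3.69 CPM in 3CK, from 115 and 22 UMIs (0.29, -0.44 to 0.96), and without the cell with most CLDN2 in each library at a log2 ratio of -0.00. With the TTR levels weighted as in CNT the pooled log2 ratio was -0.35; in that weighting the 69 high cells of 3CK stand for 52.8% of the cells. Above a TTR boundary of 1000 there was no CLDN2 UMI in 13 3CK cells, where 3 UMIs would be 2.74 CPM, against 55 UMIs (3.44 CPM) in 195 CNT cells. The direction in high cells was therefore not settled at this depth. Across cells the genes most like CLDN2 were BMP2, TFPI, DOK4, PRSS23 and CDH17, with a likeness (the lower of both libraries' correlations) of at most 0.10, which in counts this sparse is no finding. CLDN2 overlaps genes on the other strand, MORC4 and RIPPLY1.

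CLDN15 (chromosome 7, 101232092 to 101238820, minus strand), which forms cation channels in the intestine, was more abundant than CLDN2 and also lower in 3CK. It stood at 10.9 CPM in CNT (10.2 to 11.8) against 8.93 CPM in 3CK (8.24 to 9.67), a log2 ratio of -0.29 (-0.45 to -0.14). The ratio was -0.82 (-1.18 to -0.44) in TTR low cells, -0.49 (-0.71 to -0.27) in middle cells and -0.37 (-0.87 to 0.09) in high cells, where the interval includes 0. With TMM factors the ratio in middle cells was -0.11. In CNT its level was 17.4 CPM in low, 12.3 CPM in middle and 9.13 CPM in high cells, and in 3CK 9.87, 8.79 and 7.05 CPM. Unlike CLDN3 and CLDN4, CLDN15 was not lower in collagen cells than in all epithelial cells pooled. Collagen cells held 14.0 CPM in CNT against 17.2 CPM in 3CK. In the 3CK collagen cells 1 cell held 60 of 164 CLDN15 UMIs, and without the top cell of each library the ratio in collagen cells turned from 0.29 to -0.25.

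CLDN12 (chromosome 7, 90383721 to 90513402, plus strand), a claudin that lacks the usual scaffold-binding tail and is not settled as sealing or pore-forming, stood at 10.3 CPM in CNT against 14.7 CPM in 3CK, a log2 ratio of 0.51 (0.37 to 0.65). The ratio was 0.44 in TTR low and 0.39 in middle cells, and -0.26 (-0.74 to 0.18) in high cells. At CNT's mix of TTR levels it was 0.12. Genes on the same strand, CDK14, GTPBP10 and PTTG1IP2 among them, overlap the annotated CLDN12 locus. As to overlap, these counts are the least certain of the claudin members.

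Set against each other, the pore-forming claudins made up a smaller part of the claudin UMIs in 3CK than in CNT in each TTR level. CLDN2 and CLDN15 together made up 2.06% (1.93 to 2.19) of the UMIs of the 6 pore-forming and sealing claudins in CNT epithelial cells and 1.08% (1.00 to 1.17) in 3CK. That is 47.5 sealing UMIs per pore-forming UMI in CNT and 91.3 in 3CK. Sealing claudins summed to 661 CPM in CNT against 906 CPM in 3CK, and pore-forming claudins to 13.9 and 9.92 CPM. The log2 difference of the pore to sealing ratio was -0.94 (-1.09 to -0.80). It was -1.30 (-1.66 to -0.94) in TTR low cells, where the pore share went from 2.84% to 1.17%. In middle cells it was -1.09 (-1.29 to -0.88), from 2.16% to 1.03%, and in high cells -0.61 (-1.01 to -0.23), from 1.88% to 1.24%. With TTR boundaries of 100 and 1000 the value in high cells was -1.32, from 195 CNT and 13 3CK cells, so the levels have no fixed order. The intervals of low and high cells overlap, and the difference between levels was not tested. Because numerator and denominator come from the same cells, the value does not move with the scaling of the libraries. CLDN15 supplied 747 of the 949 pore-forming UMIs in CNT and 608 of 675 in 3CK. With CLDN2 alone as pore-forming the difference was -2.04 over all epithelial cells but -0.14 (-0.87 to 0.52) in high cells, and with CLDN15 alone it was -0.75 over all of them. With CLDN7 left out of the sealing group it was -0.70 over all of them, and in high cells -0.27 (-0.68 to 0.12).

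**Figure D2:**
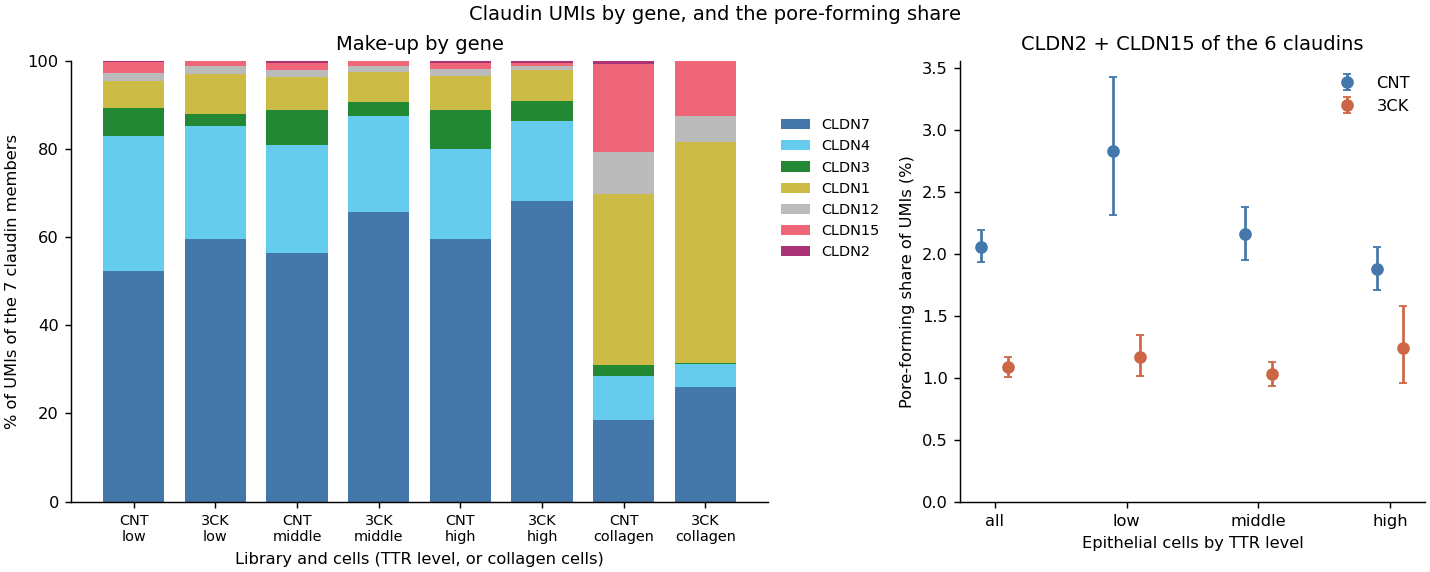
Left, share of each of the 7 claudin members in their summed UMIs (stacked bars, percent) for each library and TTR level and for collagen cells. Right, UMIs of CLDN2 and CLDN15 as a percent of the UMIs of the 6 pore-forming and sealing claudins (points, with 95% exact binomial intervals) in CNT and 3CK, where every 3CK point lies below the CNT point of the same cells.

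Within the 7 claudin members, CLDN7 went from 57.8% of the UMIs in CNT to 64.2% in 3CK and CLDN3 from 8.40% to 3.06%. CLDN4 took 22.7% and 22.6% and CLDN1 7.54% and 7.41% in the pooled cells, but not within TTR levels. The part of CLDN4 was lower in 3CK in each level: 30.7% against 25.9% in low, 24.4% against 21.9% in middle and 20.3% against 18.2% in high cells. The part of CLDN1 was higher in low cells, 6.12% against 8.99%, and lower in middle cells, 7.52% against 6.82%. After thinning, 74.7% of CNT (71.8 to 77.5) and 82.4% of 3CK epithelial cells (79.4 to 85.1) had UMIs of at least 2 of the 4 sealing claudins, and 68 CNT and 43 3CK cells of all 4. In the same thinned cells, 96.1% of CNT and 98.5% of 3CK epithelial cells had a UMI of at least 1 sealing claudin, and the median cell had UMIs of 4 of the 10 members in both libraries. A pore-forming claudin without any sealing claudin was seen in 3 CNT cells and 1 3CK cell. CLDN3 and CLDN4 were both seen in 21.0% of CNT (18.5 to 23.8) against 12.7% of 3CK cells (10.3 to 15.4). Such shares follow the levels of the genes.

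OCLN (chromosome 5, 69492292 to 69558104, plus strand) was the member whose direction differed between TTR levels with no counting interval that included 0. Over all epithelial cells it stood at 114 CPM in CNT against 98.4 CPM in 3CK, a log2 ratio of -0.21 (-0.26 to -0.17). In TTR low cells it was higher in 3CK, 68.7 CPM (61.9 to 76.1) against 107 CPM (102 to 112), a log2 ratio of 0.64 (0.48 to 0.80). In middle cells it was lower, 128 against 95.7 CPM (-0.42, -0.49 to -0.36), and in high cells too, 111 against 90.9 CPM (-0.29, -0.42 to -0.16). In 3CK OCLN was therefore highest in low cells, whereas in CNT it was lowest there. The 3CK intervals of middle (92.9 to 98.7 CPM) and high cells (83.4 to 98.9 CPM) overlap and lie below that of low cells. The median log2 ratio of all genes with at least 10 CPM was -0.09 in low, -0.23 in middle and -0.10 in high cells. Relative to it OCLN differed by 0.73, -0.19 and -0.19. With TMM factors the ratio in middle cells was -0.04, and with TTR boundaries of 100 and 1000 the ratio in low cells was 0.17, against 0.40 with each cell weighted equally. Thinned shares followed, at 45.7% against 62.9% of low cells and 70.1% against 54.8% of middle cells. OCLN has a pseudogene copy, OCLNP1, so reads could be split or lost between the copies.

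TJP1 (chromosome 15, 29699367 to 29968915, minus strand) gave opposite signs when cells were pooled and when they were split. Over all epithelial cells it was higher in 3CK, 84.9 against 95.9 CPM, a log2 ratio of 0.18 (0.12 to 0.23). Within each TTR level it was lower: 160 against 145 CPM in low cells (-0.14, -0.25 to -0.03), 112 against 81.6 CPM in middle cells (-0.46, -0.53 to -0.38) and 56.7 against 45.0 CPM in high cells (-0.33, -0.52 to -0.15). TJP1 was lower where TTR was higher in both libraries, with a correlation of -0.46 across the 942 and the 717 cells, and 3CK holds a larger share of low cells. At CNT's mix of levels the pooled log2 ratio was -0.36, and with TTR, hepatic, mitochondrial and ribosomal genes taken out of the totals it was 0.01. In low cells the sign was not stable to scaling, since it was 0.08 with TMM factors, and in middle cells TMM factors left -0.08. The median log2 ratio of all genes with at least 10 CPM was -0.09 in low, -0.23 in middle and -0.10 in high cells, so relative to it TJP1 differed by -0.05, -0.22 and -0.23. Across cells TJP1 went with CDH1, the E-cadherin gene (correlation 0.42 in CNT and 0.49 in 3CK).

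F11R (chromosome 1, 160995211 to 161021343, minus strand) was higher in 3CK in each TTR level. It stood at 110 CPM in CNT (108 to 113) against 150 CPM in 3CK (147 to 153), a log2 ratio of 0.44 (0.40 to 0.49). The ratio was 0.54 in TTR low cells (104 against 151 CPM), 0.26 in middle cells (128 against 153 CPM) and 0.32 in high cells (99.9 against 125 CPM), where it was 0.04 with TTR boundaries of 100 and 1000. Thinned shares were 61.7% of CNT (58.5 to 64.8) against 74.9% of 3CK cells (71.6 to 78.0). An unnamed gene on the same strand overlaps F11R, and another overlaps TJP1.

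**Figure D3:**
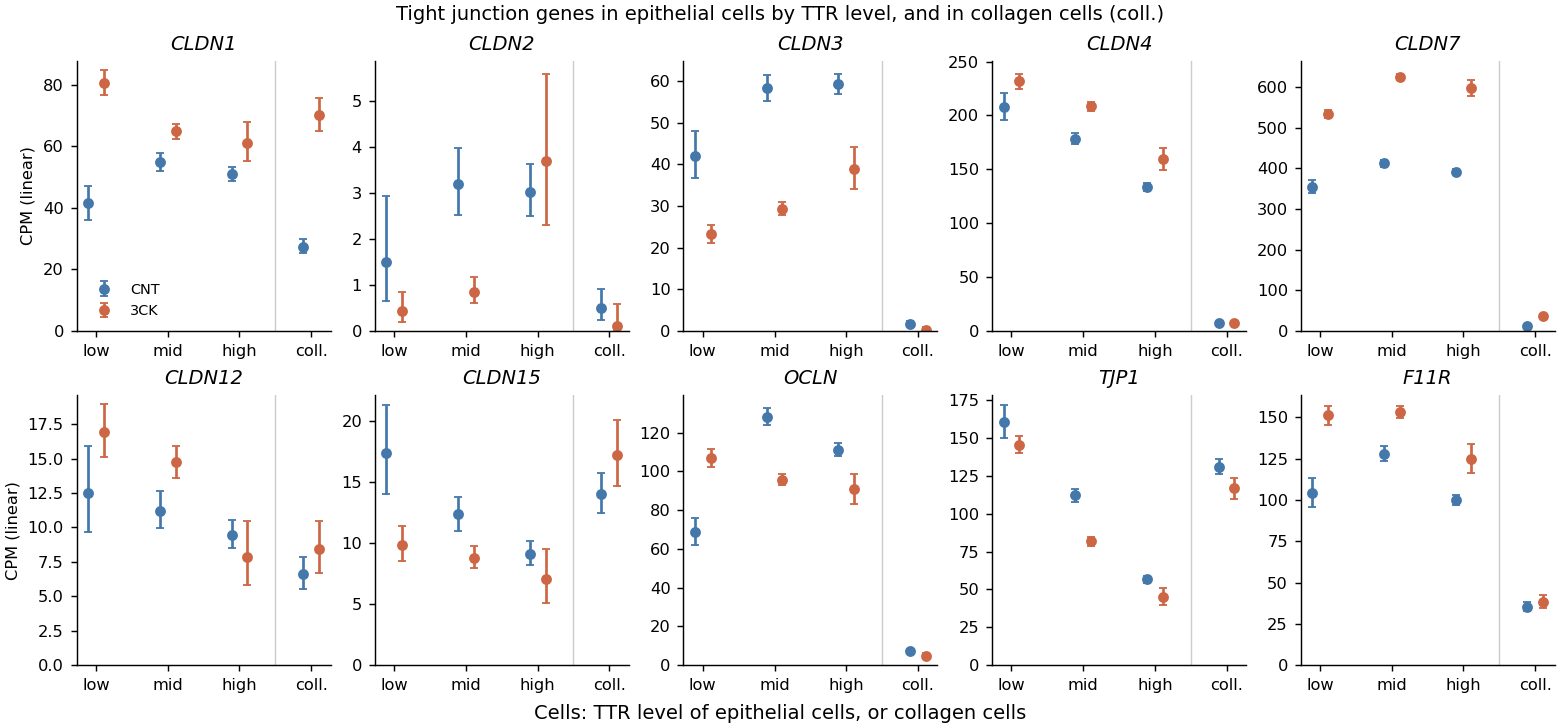
Level of each member (CPM on a linear axis from 0, points, with 95% Poisson intervals) in epithelial cells of low, middle and high TTR level and in collagen cells, for CNT and 3CK. OCLN crosses between low and middle cells, TJP1 declines with TTR in both libraries, and CLDN3 is lower in 3CK in all 3 levels.

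Over the members together, past 2-fold, 1 was lower and 0 higher in TTR low cells, where 7.3% of 18448 genes with at least 1 CPM were higher and 17.7% lower. In TTR middle cells 1 was lower and 0 higher, against 6.17% higher and 21.5% lower of 17007 genes. In TTR high cells 0 of 10 were past 2-fold, against 6.19% higher and 13.5% lower of 15617 genes. CLDN2 was the 1 lower member in both the low and the middle cells. Markers moved between the libraries too. Over all epithelial cells the 6 epithelial markers summed to 11029 CPM in CNT against 21542 CPM in 3CK, in the direction of CLDN7, CLDN4 and F11R. KRT18 stood at 4229 and 11012 CPM, but EPCAM at 1126 and 961 CPM and KRT19 at 2390 and 2065 CPM. The sum was also higher in 3CK in TTR middle and high cells. In TTR low cells it was lower, 22514 against 19699 CPM, although CLDN7, CLDN4 and F11R were higher in 3CK there. The next sums are again over all epithelial cells. The 7 colonocyte markers summed to 281 and 114 CPM and the 6 goblet markers to 1513 and 802 CPM. The 7 hepatic markers summed to 100890 CPM in CNT against 32768 CPM in 3CK, the 7 enterocyte markers to 6531 and 2046 CPM, the 7 mesenchymal markers to 197 and 79.4 CPM and the 5 leukocyte markers to 83.9 and 104 CPM, with PTPRC at 0.234 and 0.0882 CPM. Their part in the members' differences was not tested beyond the split by TTR. The enterocyte and endocrine gates held too few 3CK cells (13 and 2) for a ratio.

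The mix of junction transcripts differed in collagen cells. CLDN3, CLDN4, CLDN7 and OCLN stood at 1.72, 7.02, 13.0 and 7.22 CPM in CNT collagen cells, between 2.99% and 6.33% of their epithelial levels, and EPCAM at 28.0 CPM, or 2.49%. TTR stood at 1.89% of its epithelial level in CNT collagen cells and at 1.33% in 3CK ones, with a UMI in all 336 CNT cells. How much of such low values is ambient RNA was not tested. TJP1 (131 CPM) and CLDN15 (14.0 CPM) were instead higher there than in all CNT epithelial cells pooled. They were not higher than in CNT TTR low epithelial cells, which held 160 and 17.4 CPM. CLDN1 and CLDN12 reached 53.1% and 64.1% of their epithelial levels. Between the libraries CLDN1 was higher in 3CK collagen cells, 27.4 against 70.1 CPM, a log2 ratio of 1.35 (1.19 to 1.52), and 78.9% of them had a CLDN1 UMI against 44.9% in CNT without thinning. Thinned, the shares were 33.9% (25.1 to 43.6) and 18.2% (14.2 to 22.7). CLDN7 was also higher, 13.0 against 36.5 CPM (1.49, 1.25 to 1.73), but 1 3CK cell held 116 of its 348 UMIs, and without the top cell of each library the ratio was 1.14. Markers moved in these cells as well: the 5 leukocyte markers summed to 57.8 CPM in CNT against 195 CPM in 3CK, with TYROBP at 28.0 and 85.3 CPM, CD68 at 26.4 and 89.1 CPM and PTPRC at 0.491 and 3.57 CPM, and the 7 mesenchymal markers to 10357 and 4698 CPM. Keratins were present in them, with KRT18 at 5052 and 6968 CPM. The part of these markers in the CLDN1 and CLDN7 values was not tested. EPCAM in the same cells went the other way, 28.0 against 22.8 CPM.

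**Figure D4:**
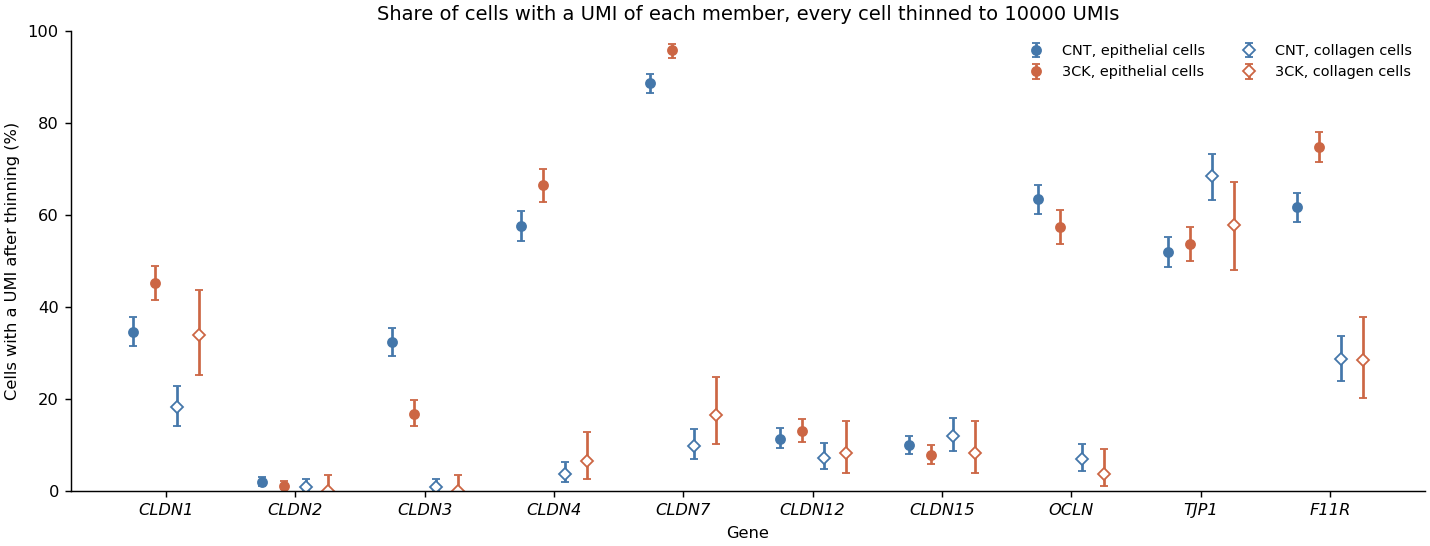
Share of cells with at least 1 UMI of each member after every cell was thinned to 10000 UMIs (percent, points, with 95% exact binomial intervals), in epithelial cells (filled circles) and collagen cells (open diamonds) of CNT and 3CK. CLDN3, CLDN4, CLDN7, OCLN and F11R are seen in a larger share of epithelial than of collagen cells, whereas CLDN2, CLDN12 and CLDN15 have low shares in both and TJP1 has shares above 50% in both.

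The rest of the junction was read from lists of genes, over all epithelial cells unless a TTR level is named. Of all genes with at least 1 CPM, 8.91% were higher and 11.8% lower by at least 2-fold. In lists this short, counts of 0 or 1 are no property of a list. Of the 17 other claudins, 7 had at least 1 CPM, with a median log2 ratio of -0.08, and 1 was lower by at least 2-fold. Beside CLDN6, the stomach claudin CLDN18 stood at 40.3 and 38.3 CPM. CLDN19 was the lower one, 4.72 against 0.764 CPM (-2.63, -3.08 to -2.20), and like CLDN2 it is under 10 CPM. Of the 5 MARVEL and angulin genes of tricellular corners, LSR, the angulin that recruits tricellulin, went from 194 to 290 CPM (0.58). Tricellulin itself (MARVELD2) went from 49.0 to 47.0 CPM. ILDR2 was the 1 lower by at least 2-fold, at 4.82 against 0.926 CPM. Of the 3 measured JAM-like genes 0 were higher and 1, JAM3, lower by at least 2-fold (log2 ratio -2.00). JAM3 is near the 1 CPM limit, at 1.35 against 0.338 CPM from 92 and 23 UMIs. CXADR, the most abundant, stood at 86.7 and 86.3 CPM. Among 9 junction scaffolds, related to TJP1 by role, 0 passed 2-fold over all epithelial cells. MAGI1, the most abundant, was at 148 and 95.8 CPM (-0.63, -0.67 to -0.58). Within TTR middle cells 8 of the 9 were below 0, with a median of -0.59 against -0.34 over all genes. There 2 were lower by at least 2-fold, MAGI1 among them at 210 and 67.8 CPM (-1.63), against 21.5% of all genes. In low and in high cells 1 was lower by that much, against 17.7% and 13.5% of all genes.

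Adherens junction and desmosome genes, which lie below the tight junction, were more often above than below a log2 ratio of 0 over all epithelial cells. Over all genes with at least 1 CPM the median log2 ratio was 0.01 in these cells. By TTR level that median was -0.17 in low, -0.34 in middle and -0.17 in high cells. Of the same genes, 8.91% were higher and 11.8% lower by at least 2-fold over all epithelial cells. A count of 1 in the lists below is near these shares. Of 9 adherens junction genes 6 were above 0, with a median of 0.14 over all epithelial cells. In TTR middle cells their median was -0.34, level with that of all genes. NECTIN4 was the 1 lower by at least 2-fold (-1.01), and the most abundant, NECTIN2, went from 242 to 391 CPM (0.69). CDH1 went from 142 to 252 CPM (0.83, 0.79 to 0.87) and was higher in each TTR level (0.54, 0.44 and 0.65). Of 7 measured desmosome genes 5 were above 0, with a median of 0.26 over all epithelial cells. By TTR level their median was -0.22 in low, 0.07 in middle and 0.28 in high cells. Over all epithelial cells desmoplakin (DSP) went from 284 to 453 CPM (0.67). The 12 actomyosin genes, which set the tension on the junction, had a median of 0.55 with MYL12B, a myosin light chain, at 1055 and 1584 CPM. Their median was -0.03 in TTR low, 0.05 in middle and 0.26 in high cells, each above that of all genes. In the polarity complex PARD6G was the 1 of 10 lower by at least 2-fold, 16.7 against 7.60 CPM (-1.13), and CRB3 and PARD6B were near 80 CPM. Of 16 genes for transcription factors that act on claudin genes 1 passed 2-fold over all epithelial cells, ZEB1. It was at 1.38 and 4.61 CPM (1.74), but in TTR low cells at 8.41 and 9.60 CPM (0.19, -0.29 to 0.70). By level, 2 were higher and 1 lower by 2-fold in low cells, 1 and 3 of 15 in middle and 1 and 2 of 14 in high cells. Over all genes the shares higher and lower were 7.3% and 17.7%, 6.17% and 21.5%, and 6.19% and 13.5%. Over all epithelial cells GATA6, the most abundant of them by the mean of both libraries, went from 108 to 57.7 CPM (-0.91). HNF4A went from 42.0 to 24.5 CPM (-0.78). The log2 ratios of GATA6 and HNF4A were 0.05 and -0.07 in TTR low cells and -1.19 and -1.34 in middle cells. Over all epithelial cells ELF3 went from 51.9 to 103 CPM (0.99) and KLF4 from 32.0 to 53.1 CPM (0.73). CDX2 stood at 81.3 and 83.3 CPM (0.03). In low and middle cells the log2 ratios were 0.17 and 0.76 for ELF3, 1.38 and 0.26 for KLF4, and 0.20 and 0.08 for CDX2.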

How the data were processed

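Droplet RNA-seq of organoid cells was deposited by the authors as 1 filtered matrix of UMI counts per library, made with Cell Ranger 7.1.0 per the file headers and with genome build GRCh38 per the submitters' processing notes. Annotation version, strand setting and doublet removal are not stated there. CNT held 3257 barcodes with 105314879 UMIs and 3CK 1641 with 94887438, over 36601 genes. Barcodes were kept with at least 500 genes and at most 20% mitochondrial UMIs, and the highest Scrublet scores (scanpy 1.11.5) were removed at 0.8% per 1000 barcodes, 52 in CNT and 16 in 3CK. This left 2487 and 1398 barcodes, of which 1457 and 995 had at least 10000 UMIs.

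UMIs were summed over the gated cells and given as CPM of all their UMIs, with exact Poisson intervals. Ratios of 3CK to CNT carry the interval of the exact binomial share, and shares of cells exact (Clopper-Pearson) intervals after each cell was thinned to 10000 UMIs. A share of 0 is given with the limit of 3 counts. All intervals are at 95% and cover counting error only. With 1 library per group there is no test. Fold counts are read against all genes of the same cells. Alternatives included edgeR 4.0.16 TMM factors, and the code was tested on simulated counts. Locations come from the GENCODE annotation and promoters, matched by symbol, from RefSeq (GRCh38.p14).

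The members and lists were chosen with earlier results of these data known. Beside the members, the text names from each list the gene with the highest mean CPM and those past 2-fold with at least 10 CPM. The others it names were chosen after their values were seen: CLDN18, CLDN19, MARVELD2, ILDR2, JAM3, CDH1, NECTIN4, CRB3, ZEB1, ELF3, KLF4, HNF4A and CDX2. Omission of the top cell and CLDN15 alone as pore-forming were also added after seeing the data. The cytokine response list, and the split of 3CK cells by it, are not reported here.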

Additional observations from a re-analysis of the deposited data

Results flagged for a closer look

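The log2 ratio of 3CK to CNT for OCLN had opposite signs in cells of different TTR level: 0.64 in TTR low cells, -0.42 in TTR middle cells and -0.29 in TTR high cells. None of the 3 counting intervals includes 0 (0.48 to 0.80, -0.49 to -0.36 and -0.42 to -0.16). The difference between the levels was not tested, since each group is 1 library.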

How the results depend on the processing

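No paired analysis was possible because each group is 1 library and the labels carry no replicate number. The log2 difference of pore-forming to sealing claudins kept its sign under all 51 alternatives, over all epithelial cells and by TTR level. Of these, 44 gave values within the main interval. The 51 and the 44 include 4 with TMM factors and 4 with TTR, hepatic, mitochondrial and ribosomal genes taken out of the totals. Scaling cancels in this value, so those could not move it and are no check. It was -0.94 over all epithelial cells, and -0.70 with CLDN1, CLDN3 and CLDN4 as sealing, -2.04 with CLDN2 alone and -0.75 with CLDN15 alone as pore-forming. With CLDN2 alone it was -2.23 in TTR low, -2.30 in TTR middle and -0.14 in TTR high cells, and with TTR boundaries of 100 and 1000 it was -1.32 in high cells. The number of members lower by at least 2-fold was 2, but 1 with TMM factors, 1 with each cell weighted equally, 1 with EPCAM at 4 or more and 0 with TTR levels at their CNT shares; the number higher was 0, and 1 (CLDN7) at 1.5-fold. Of 120 alternatives for single members over all epithelial cells 1 changed sign (TJP1), and of 329 by TTR level 4 did (TJP1 in low, CLDN2 in high and CLDN4 in high cells under 2 settings); in collagen cells CLDN4 and CLDN15 changed sign without the top cell of each library. Medians of the other claudins and of the transcription factors changed sign at 10 CPM, to 0.00 and -0.06. The cause of these differences was not tested. With boundaries of 100 and 1000 the high level holds 13 3CK cells, in which CLDN2 had no UMI and gives no ratio. At 10000 UMIs per cell the depth could not show CLDN2 above its share in collagen cells.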
